A study of Mus musculus with 2 samples.

Results

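The BCL2 family of apoptosis regulators was described by 10 genes: Bcl2, Bcl2l1, Mcl1, Bax, Bak1, Bcl2l11, Bbc3, Pmaip1, Bid and Bad. They were chosen by symbol from the 54532 genes of a deposited read count table, and all 10 were found, each under 1 gene ID. The table comes from 4T1 cells, a transplantable mammary carcinoma line of BALB/c mice, with 1 sample labelled wild type and 1 labelled knockout. The design text names Cd28, a costimulatory receptor best known from T cells, as the knocked-out gene. How the knockout was made, and whether the cells were 1 clone or a pool, is not given in the sources used here, and no treatment or time is given. The values below are from the knockout library alone, because the heading of the other count column could not be tied to a sample by any label. The wild-type sample is therefore absent from every comparison, and no effect of the knockout was measured.

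Proteins of the BCL2 family decide whether the outer membrane of the mitochondrion is opened, the committing step of the intrinsic route to apoptosis. The effectors BAX and BAK form the pore that lets cytochrome c out. The prosurvival proteins BCL2, BCL-XL and MCL1 hold the effectors in check, and the BH3-only proteins, which share with the rest of the family a single short helix, bind the prosurvival proteins or activate the effectors. Dependence of tumour cells on particular prosurvival proteins is the basis of drugs that mimic the BH3 helix.

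The knockout library held 15565990 counted reads, so intervals on abundant genes were narrow, but with 1 library the spread between cultures is unknown and no test was made. Intervals are exact Poisson 95% intervals and cover counting error only. Reads amplified by PCR without molecular identifiers are not independent molecules, so even the counting error may be larger than the intervals show. The level of a gene is stated as CPM, its reads out of every 1000000 counted, or, where genes are compared with each other, as TPM, for which reads are first divided by the deposited gene length and then scaled to the same total. A gene with 10 reads or more was called detected, which applied to 52.2% of the 22046 protein-coding genes of the table, while 37.4% had 0 reads. The targeted gene Cd28 had 8 reads, or 0.514 CPM (0.222 to 1.01), which without a wild-type level cannot check the label. The epithelial markers Krt8, Krt18, Krt19, Epcam and Cdh1 were all detected, at 60.3 to 2183 TPM. Of 22 markers of T and NK, B, myeloid, fibroblast and endothelial cells, 2 were detected, Cd68 at 84.2 TPM and Col1a1 at 1.71, and Cd3e, Cd79a, Ptprc, Pdgfrb and Pecam1 had 0 reads.

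Of the 10 genes 9 were detected, each with at least 350 reads, and 8 exceeded 24.4 TPM, the median over detected protein-coding genes. The exceptions were Bcl2, just under that median, and Pmaip1, which had 0 reads. This depended on length: ranked by CPM, Bcl2 lay at percentile 69.5, whereas Bad and Bbc3 lay at 35 and 35.5. Together the 10 genes took 12744 reads, 0.0819% of the library. Their median was 49.5 TPM, at percentile 72.5 when ranked among detected protein-coding genes. Since 8 of 10 exceeded the median of detected genes, against 26.1% of all protein-coding genes listed, the set lay high in this library, which is a description of genes picked for their function and not a test.

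Sequences upstream of 3 family genes are printed because they stand for the range of levels: Mcl1, the highest of the 10 genes, and 2 family genes with 0 reads, Hrk and Bcl2a1a, whose promoters differ in their content of CG dinucleotides, the sites of cytosine methylation. Each run is the 250 bases before the RefSeq start of the gene, 5′ to 3′ on the plus strand, from the GRCm38.p6 reference and not from 4T1 cells, with every CG in capitals. The windows are chr3:95658471-95658720 for Mcl1, chr5:118169514-118169763 for Hrk and chr9:88956670-88956919 for Bcl2a1a.
Mcl1: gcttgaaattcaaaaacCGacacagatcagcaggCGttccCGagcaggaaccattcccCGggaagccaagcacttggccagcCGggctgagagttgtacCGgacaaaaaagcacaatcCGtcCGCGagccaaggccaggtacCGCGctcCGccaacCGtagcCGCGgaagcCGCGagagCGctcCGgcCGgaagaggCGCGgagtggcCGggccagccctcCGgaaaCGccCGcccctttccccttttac
Hrk: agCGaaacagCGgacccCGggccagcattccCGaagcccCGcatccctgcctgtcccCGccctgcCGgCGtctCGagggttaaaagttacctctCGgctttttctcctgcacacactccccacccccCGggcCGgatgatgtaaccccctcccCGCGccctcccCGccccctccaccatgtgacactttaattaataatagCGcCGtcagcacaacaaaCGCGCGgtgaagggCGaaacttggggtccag
Bcl2a1a: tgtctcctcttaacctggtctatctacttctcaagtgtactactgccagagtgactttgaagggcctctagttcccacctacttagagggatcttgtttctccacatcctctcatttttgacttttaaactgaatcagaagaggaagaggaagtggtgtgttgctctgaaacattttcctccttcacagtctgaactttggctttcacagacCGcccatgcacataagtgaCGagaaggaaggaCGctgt
These 250 bases held 26 CG dinucleotides for Mcl1, 21 for Hrk and 3 for Bcl2a1a.

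The prosurvival genes covered the widest range among the detected genes. Mcl1 encodes a prosurvival protein with a short half-life that binds BAK, BIM and NOXA (ENSMUSG00000038612, chromosome 3, 95658788 to 95663176, plus strand, mm10). It had 4567 reads, which is 293 CPM (285 to 302) and 255 TPM (247 to 262), at percentile 96.7 and 10.4 times the median of detected genes. Bcl2l1, whose main product is BCL-XL (ENSMUSG00000007659, chromosome 2, 152780668 to 152831728, minus strand), had 1594 reads, which is 102 CPM (97.4 to 108) and 66.3 TPM (63.1 to 69.6), at percentile 80.3. Bcl2, the founding gene of the family, whose human counterpart was found at a translocation in follicular lymphoma (ENSMUSG00000057329, chromosome 1, 106538178 to 106714274, minus strand), had 1103 reads, which is 70.9 CPM (66.7 to 75.2) and 22.97 TPM (21.6 to 24.4), at percentile 47.9.

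Mcl1 thus stood above Bcl2l1, and Bcl2l1 above Bcl2, with no overlap of the counting intervals. The TPM of Mcl1 was 3.84 times that of Bcl2l1 (exact 95% interval of the ratio 3.63 to 4.07) and 11.1 times that of Bcl2 (10.4 to 11.9). The TPM of Bcl2l1 was 2.89 times that of Bcl2 (2.67 to 3.12). This order also held in reads and with the length of 1 transcript per gene in place of all merged exons, although the ratio of Mcl1 to Bcl2 was 4.14 in reads. Mcl1 alone made up 74.1% of the summed TPM of the prosurvival genes. A gene count does not separate splice forms, so the long and short products of Mcl1 and Bcl2l1, which differ in function, were counted together.

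**Figure D1:**
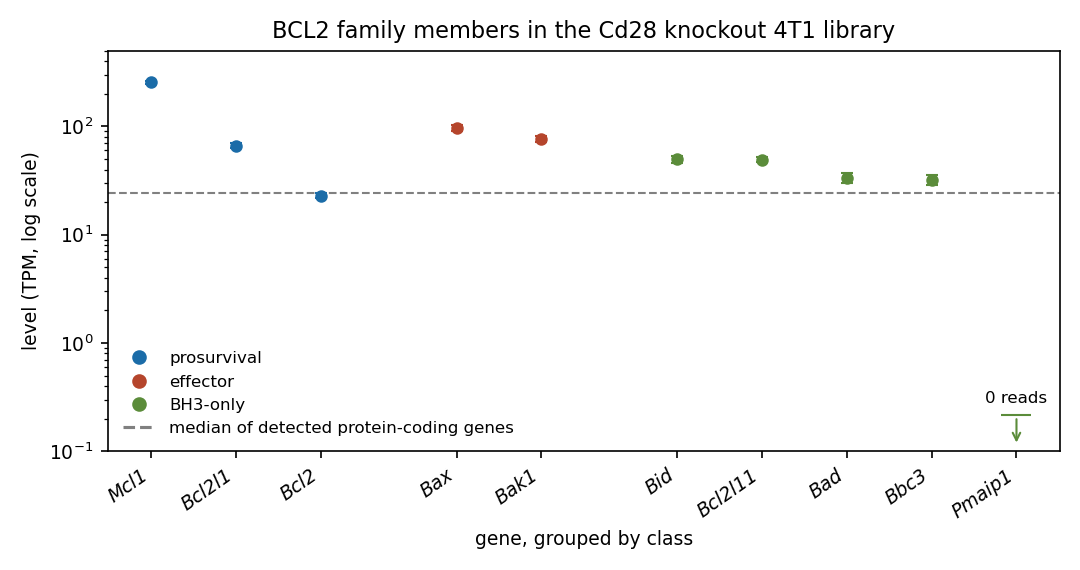
Level of each BCL2 family member in the Cd28 knockout library, in TPM on a log axis, grouped and coloured by class. Points are the levels, bars are exact Poisson 95% intervals, the dashed line is the median of detected protein-coding genes at 24.4 TPM, and for Pmaip1, with 0 reads, the bar with an arrow marks the 0.216 TPM that a count of 0 allows. Mcl1 lies highest at 255 TPM, and Bcl2 is the 1 detected member below the line.

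Both pore-forming effectors were detected, by TPM well above the median. Ranked by CPM they lay at percentile 59.1 (Bax) and 65.1 (Bak1). Bax, a cytosolic protein that moves to mitochondria when activated (ENSMUSG00000003873, chromosome 7, 45461697 to 45466898, minus strand), had 799 reads, which is 51.3 CPM (47.8 to 55.02) and 96.7 TPM (90.1 to 104), at percentile 87.7. Bak1, whose product sits in the mitochondrial outer membrane (ENSMUSG00000057789, chromosome 17, 27019810 to 27029009, minus strand), had 969 reads, which is 62.3 CPM (58.4 to 66.3) and 76.8 TPM (71.996 to 81.7), at percentile 83.1. By TPM Bax was 1.26 times Bak1 (1.15 to 1.38), but by reads the order was turned, with a ratio of 0.825 (0.75 to 0.906). With the length of 1 transcript per gene the ratio was 2.27 (2.06 to 2.496), so the size of the difference rests on which length is used. Exons of another gene, Ggnbp1 on the opposite strand with 104 reads, cover 18.2% of the Bak1 exons. A further Ggnbp1 entry of the gene models, which has no deposited count, brings the share to 25.5%. The labels' protocol mentions no strand-marking step and the strand setting of the counting is not given, so reads of this stretch cannot be placed with certainty. The Bax count carries a limit as well. Exons of Gm45808, on the same strand with 0 reads, cover 12.2% of the Bax exons. Of the 100-base stretches of the Bax transcript, 87.8% occur in no other annotated gene, and Gm45808 shares most of the rest. How the counting treated reads lying on several genes is not given in the sources used here. The 0 reads of Gm45808 therefore do not show that Bax lost no reads.

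Of the BH3-only genes 4 were detected and lay closer together than the prosurvival genes, between 31.9 and 49.6 TPM. Bid, whose product links death receptors to mitochondria after cleavage by caspase-8 (ENSMUSG00000004446, chromosome 6, 120891930 to 120916853, minus strand), had 923 reads, which is 59.3 CPM (55.5 to 63.2) and 49.6 TPM (46.4 to 52.9). Bcl2l11, which encodes BIM, a BH3-only protein that binds all the main prosurvival proteins (ENSMUSG00000027381, chromosome 2, 128126038 to 128162547, plus strand), had 2084 reads, which is 134 CPM (128 to 140) and 49.5 TPM (47.4 to 51.7). Bid and Bcl2l11 could not be told apart by TPM, with a ratio of 1.002 (0.926 to 1.08), although Bcl2l11 had the second highest read count of the 10 genes. Its deposited length is 8029 bases against 3550 for Bid.

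Bad encodes a sensitiser that 14-3-3 proteins hold in the cytosol when it is phosphorylated (ENSMUSG00000024959, chromosome 19, 6941861 to 6951898, plus strand). It had 350 reads, which is 22.5 CPM (20.2 to 24.97) and 33.2 TPM (29.9 to 36.9), at percentile 60.1. Bbc3 encodes PUMA, a BH3-only protein that p53 induces (ENSMUSG00000002083, chromosome 7, 16308393 to 16318205, plus strand). It had 355 reads, which is 22.8 CPM (20.5 to 25.3) and 31.9 TPM (28.6 to 35.4), at percentile 58.9. The TPM of Bad and Bbc3 did not differ beyond counting error, with a ratio of 1.04 (0.898 to 1.21), whereas with the length of 1 transcript per gene it was 1.23 (1.06 to 1.43).

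Counts of Bid and Bad carry a limit from overlapping genes. Exons of Bcl2l13, a gene on the opposite strand with 1005 reads, cover 17.7% of the Bid exons. Exons of Gpr137, on the opposite strand with 203 reads, cover 20.5% of the Bad exons, and 68.96% of the 100-base stretches of the Bad transcript occur in no other annotated gene. The 20.5% is of 2558 exon bases in the gene models used here. The deposited length of Bad is 2007 bases, so the share of the counted exons is not known. For Mcl1, Bcl2l1, Bcl2l11, Bbc3 and Pmaip1, 100% of these stretches are the gene's own and no exon base lies under another gene.

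Pmaip1 was not detected. It encodes NOXA, a BH3-only protein that binds MCL1 and is induced by p53 and by the integrated stress response (ENSMUSG00000024521, chromosome 18, 66458604 to 66465550, plus strand). It had 0 reads, which allows up to 0.193 CPM or 0.216 TPM (3 reads), and the two-sided interval ends at 0.237 CPM. In TPM that interval ends at 0.266, far below the least abundant of the other 9 genes on this scale, Bcl2 at 22.97 TPM. On its chromosome 280 of 523 protein-coding genes (53.5%) were detected, a share near that of all protein-coding genes. Of the 3 nearest protein-coding genes on each side, looked up after the value was seen, Ccbe1 had 977 reads, Lman1 1463, Chmp1b 389 and Gnal 23, whereas Cplx4 and Mc4r had 0. The nearest on each side, Ccbe1 and Mc4r, lie 156 and 392 kb away, so these counts do not describe the Pmaip1 locus itself. The cause of the 0 count was not tested.

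In the order of TPM, Mcl1 was followed by Bax, Bak1, Bcl2l1, Bid, Bcl2l11, Bad, Bbc3, Bcl2 and Pmaip1. Of the 8 steps between detected neighbours, 6 exceeded counting error and 2 did not, those from Bid to Bcl2l11 and from Bad to Bbc3. The step from Mcl1 to Bax had a ratio of 2.64 (2.44 to 2.84), which was 1.45 (1.34 to 1.57) with the length of 1 transcript per gene. The order below Mcl1 also depended on length. The step from Bak1 to Bcl2l1, 1.16 by TPM (1.07 to 1.26), turned to 0.608 in reads and 0.654 with 1 transcript per gene, and that from Bbc3 to Bcl2, 1.39 by TPM (1.23 to 1.57), turned to 0.322 in reads. In reads Bcl2 was the fourth of the 10 genes and by TPM the ninth, and Bax was the seventh in reads and second by TPM.

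**Figure D2:**
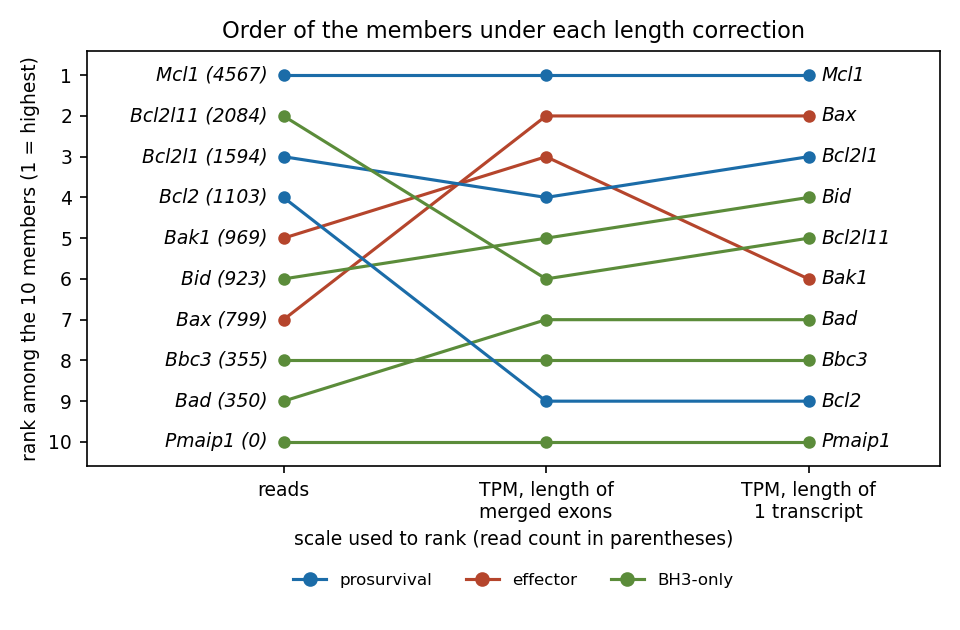
Rank of each of the 10 genes, from 1 for the highest, by reads, by TPM with the deposited length of merged exons and by TPM with the length of 1 transcript per gene. Lines join the ranks of a gene and are coloured by class. Mcl1 and Pmaip1 keep the first and last place on each scale, whereas Bcl2 goes from rank 4 to 9 and Bax from rank 7 to 2 once length is taken into account.

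Bcl2 and Bcl2l11, which lost the most places when length was taken into account, have long untranslated ends. In the transcript with the longest coding part, the 3′ untranslated region made up 83.8% of Bcl2l11 and 70.8% of Bcl2, whose deposited lengths of 8029 and 9157 bases are the longest of the 10 genes. It made up 68.9% of Mcl1, 19.4% of Bax and 26% of Bad. The coding parts were more alike, from 309 bases for Pmaip1 to 993 for Mcl1, and made up 7.73% of the deposited length of Bcl2 and 36.5% of that of Bax.

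By class, the 3 prosurvival genes summed to 344 TPM (336 to 352), the 2 effectors to 173 (165 to 182) and the 5 BH3-only genes to 164 (158 to 170). The prosurvival sum was 2.1 times the BH3-only sum, and 1.98 times the effector sum. The intervals of the effector and BH3-only sums overlapped, at a ratio of 1.06. In reads the effector sum was 0.476 times the BH3-only sum, and the prosurvival sum was 4.11 times the effector sum. Over all 19 family genes of the lists, described next, the effector sum of 266 TPM (255 to 276) lay above the BH3-only sum of 175 (169 to 182), a ratio of 1.51. The place of the prosurvival genes rested on Mcl1: without the highest gene of each class, the sums were 89.2 TPM for the prosurvival, 76.8 for the effector and 115 for the BH3-only genes, and the ratio of prosurvival to BH3-only was 0.779. These are sums of mRNA, and protein levels and binding were not measured.

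Widening the classes to the 19 BCL2 family genes of the lists added 9 genes, of which 3 were detected. Bok, an effector-like gene, had 889 reads and 92.1 TPM, level with Bax within counting error (ratio of Bax to Bok 1.05, 0.953 to 1.16). Bcl2l2, which encodes the prosurvival BCL-W, had 612 reads and 26.1 TPM, 1.14 times Bcl2 by TPM (1.03 to 1.26) and 0.555 times by reads. Both counts carry a limit from overlapping genes. Exons of Gm20521, on the same strand with 0 reads, cover 13.3% of the Bcl2l2 exons. Exons of D630008O14Rik, on the opposite strand with 3 reads, cover 6.09% of the Bcl2 exons. Bmf, a BH3-only gene, had 311 reads and 11.3 TPM, and Bcl2l11 was 4.38 times as high (3.89 to 4.95).

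No read fell on the other 6 added genes, whose level could be up to 0.193 CPM at this depth: the prosurvival genes Bcl2a1a, Bcl2a1b, Bcl2a1d and Bcl2l10, and the BH3-only genes Bik and Hrk. The Bcl2a1 genes are best known from blood cells, and are near copies of each other. Of their 100-base stretches, 43.2% to 56.5% occur in no other annotated gene. For Bcl2a1b the gene sharing most is Gm29094, on the same strand, whose exons cover 49.1% of the Bcl2a1b exons. How the counting treated reads with several placements is not given in the sources used here. The genes that share most with the Bcl2a1 genes had 0 reads as well. If reads with several placements were dropped, the limit of 0.193 CPM would not cover the shared stretches. Of the 19 family genes 12 were detected, 63.2% as against 52.2% of all protein-coding genes. The other 7 had 0 reads, a share close to the 37.4% of all protein-coding genes with 0 reads.

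RefSeq promoter windows of 300 bases, from 250 before to 50 after the start, were matched for 16 of the 19 family genes, all but Pmaip1, Bik and Bcl2l10. Where a gene had several windows, the one nearest to the start of its chosen transcript was taken. Among all 32851 windows of the table the median was 7 CG dinucleotides. The 12 detected family genes held 9 to 44, with a median of 20.5, and every one exceeded the median of all windows. Bcl2 held the most, 44, Bbc3 held 34 and Mcl1 33, and Bak1, with 11, held the fewest of the matched members. The RefSeq start of the Bak1 window, however, lies 382 bases from the start of its chosen transcript, against at most 85 bases for any other matched family gene. The chosen transcript can itself start inside the annotated gene, as for Bcl2l1, Bbc3 and Hrk. That of Hrk starts at base 118169748 and the annotated gene at 118164648. Of the 4 matched genes with 0 reads, Bcl2a1a held 3, and Bcl2a1b and Bcl2a1d 4 each, whereas Hrk held 29. The motif GGGCGG, read on both strands, was present in 14 of the 16 windows, against 35.7% of all windows, and was missing from those of Bcl2l1 and Bak1. The motif TATAAA, read likewise, was in 0 of 16, against 13.6% of all windows. The third motif searched, CCAAT, was in 2 of 16, those of Bcl2l11 and Bmf, against 37.4% of all windows. GGGCGG was present also in the 4 windows of genes with 0 reads. These matches describe letters in the reference.

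**Figure D3:**
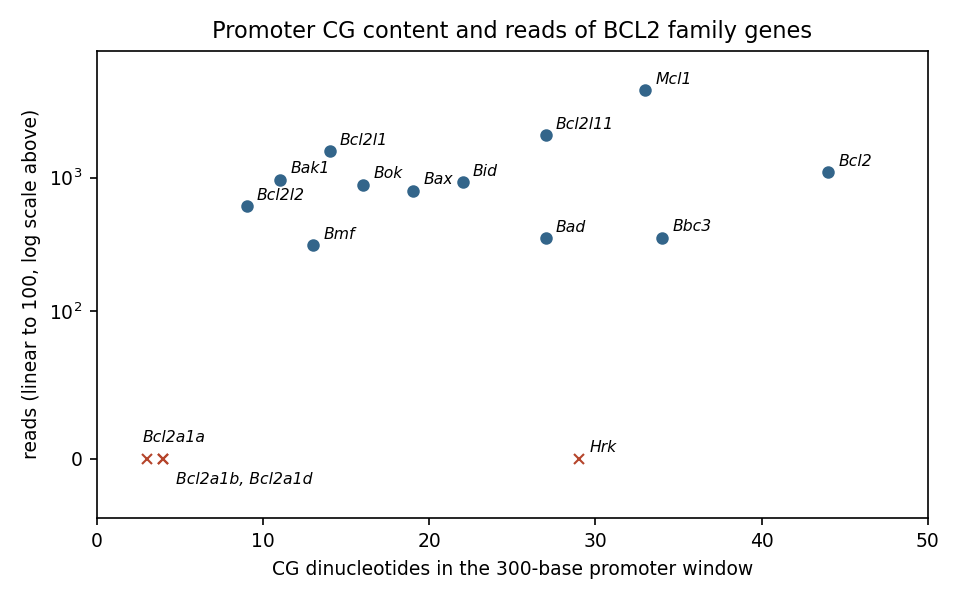
Number of CG dinucleotides in the 300-base promoter window against reads in the Cd28 knockout library for the 16 matched BCL2 family genes, with the read axis linear to 100 and logarithmic above. Circles are detected genes and crosses genes with 0 reads. The Bcl2a1 genes lie at 3 and 4 CG and Hrk at 29, so genes with 0 reads are found at both low and high CG content.

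Other genes of the pathway were taken from lists by role, with TPM by the deposited length. Levels and the order within a list can change with the length of 1 transcript per gene. On that length Cflar went from 33.1 to 164 TPM, above Casp8 at 78.3. Likewise Gsk3b went from 28.1 to 109, above Gsk3a at 71.4, whereas Ppp1ca fell from 484 to 314. The apoptosome and caspase list had all of its 10 genes detected, 6 of them above the median. Casp8, which encodes the caspase that cleaves BID, had 72.2 TPM and Cycs, which encodes cytochrome c, 36.2. Apaf1, the scaffold of the apoptosome, had 19.6 TPM and Casp9, the caspase it activates, 9.72.

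The table holds 8 listed inhibitors of apoptosis and antagonists of these, of which 7 were detected and 4 lay above the median. Birc5, which encodes survivin and also acts in mitosis, had 113 TPM, Htra2 had 50.5 and Xiap, a direct caspase inhibitor, 32.5. Diablo, which encodes an antagonist released with cytochrome c, had 132 reads and 4.08 TPM. All 6 executioners and substrates were detected and 2 exceeded the median, Parp1, a caspase substrate, at 94.4 TPM and Aifm1 at 49.6, followed by Dffa at 14.9.

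Partners in the outer membrane and of mitochondrial shape were mostly higher. All 10 were detected and 9 exceeded the median, with Vdac1 at 353 TPM, Vdac2, whose product binds BAK, at 142 and Vdac3 at 78.2. The list for MCL1 turnover, 7 genes under the symbols of the table, had each of them detected, with 5 above the median. The ubiquitin ligase genes March5 and Huwe1 had 166 and 60.7 TPM, the kinase gene Gsk3a 80.2, and the deubiquitinase gene Usp9x 45.7.

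Regulators of BAD and BIM were the list with the highest median. All 16 were detected and 15 exceeded the median, with a list median of 193 TPM at percentile 95.1. The 14-3-3 gene Ywhae had 644 TPM, the phosphatase gene Ppp1ca 484 and the kinase gene Akt1, whose product phosphorylates BAD, 411. Dynll1, which encodes the dynein light chain known to bind BIM, had 101 TPM. The highest regulators thus exceeded Bad itself at 33.2 TPM.

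Of 10 transcription factors known to act on BH3-only genes 8 were detected and 7 exceeded the median. Myc had 529 TPM, Atf4, of the integrated stress response, 411, and Jun 111. Trp53, which encodes p53, a known activator of Bbc3 and Pmaip1, had 1373 reads and 64.7 TPM (percentile 79.7), while its relatives Trp63 and Trp73 had 3 and 0 reads. The count of Trp53 does not show whether the transcript codes for an intact protein. The list of death receptors also holds a related receptor gene, Tnfrsf12a, and genes of receptor signalling. All 6 of its genes were detected and 4 lay above the median. Tnfrsf12a had 468 TPM, Tnfrsf1a 79.5 and the adaptor gene Tradd 37.7, while the death receptor gene Fas had 12.1. In the remaining list, of BCL2-related genes with other or less clear roles, 6 of 7 were detected and 2 exceeded the median, Bnip3l, a mitophagy receptor gene, at 60.8 TPM and Becn1, of autophagy, at 30.7. Bcl2l13 had 21.1 TPM and Bcl2l14 had 0 reads.

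**Figure D4:**
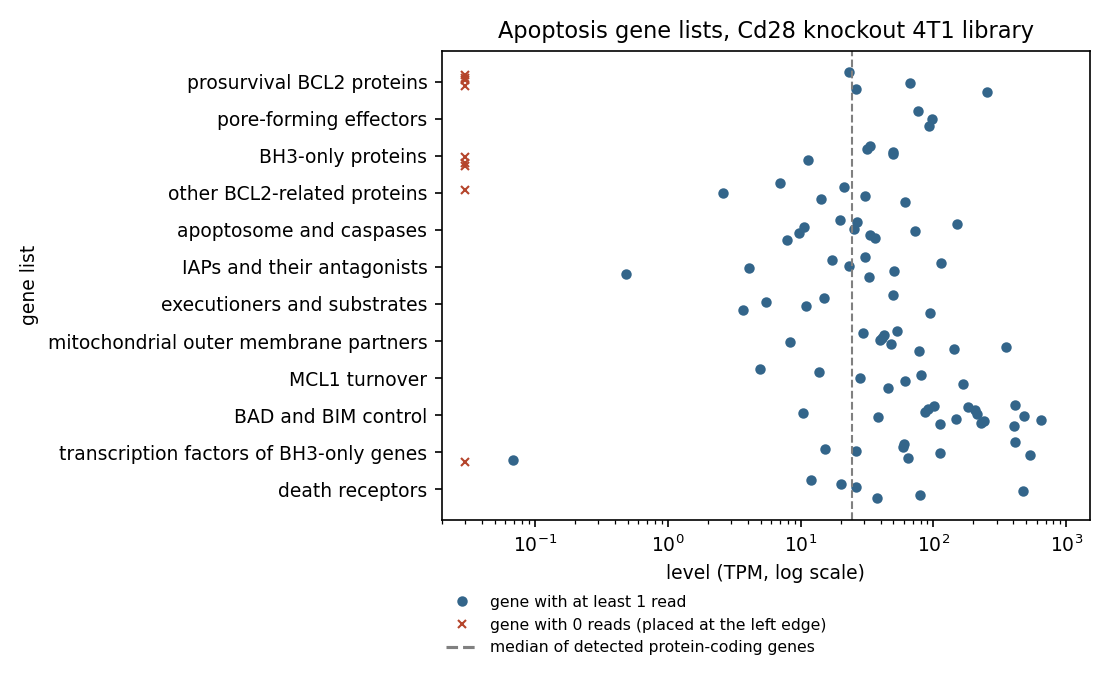
Level of each gene of the 12 apoptosis lists in the Cd28 knockout library, in TPM on a log axis, 1 row per list. Circles are genes with at least 1 read, crosses at the left edge are genes with 0 reads, and the dashed line is the median of detected protein-coding genes at 24.4 TPM. The regulators of BAD and BIM lie furthest right, with 15 of 16 genes beyond the line. The rows of prosurvival and BH3-only genes hold 7 of the 9 crosses. These 7 are out of 19 family genes, a share close to the 37.4% of all protein-coding genes with 0 reads.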

How the data were processed

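Poly(A) RNA was sequenced from 1 wild-type and 1 knockout sample, which the labels do not describe as replicates. The authors deposited raw read counts per gene, in whole numbers, with gene positions, lengths and biotypes. The genome build was mm10 and the tools were featureCounts 1.5.0-p3, HISAT2 2.0.5 and CASAVA, per the submitters' processing notes. Which annotation release and strand setting were used, and how reads with several placements were treated, is not given in the sources used here. The table holds 1 further column of per-sample values, which matches no sample label and was not used, so no ratio of knockout to wild type was made.

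From the deposited counts, CPM was computed over all 15565990 reads and TPM with the deposited gene length over all genes. A percentile states which share of the 11497 detected protein-coding genes (10 reads or more) lay lower in TPM. Intervals are exact Poisson for levels, exact conditional binomial (Clopper-Pearson) for ratios and Fay-Feuer gamma for summed TPM, all at 95%. In Poisson draws around the real counts, 95.6% of 13793 Poisson intervals, 94.7% of 2000 ratio intervals and 94.1% of 2000 intervals of sums held the true value. The draws have the same spread that the intervals assume, so this checks the computation only. It does not show that real reads have that spread.

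Gene models came from GENCODE vM21 (GRCm38), where 53585 of the 54532 table IDs had the same position. Those of Bad and Pmaip1 differed, with deposited lengths of 2007 and 2646 bases against 2558 and 2732 merged exon bases. The transcript length used as an alternative is that of the transcript with the longest coding part. Promoters are from RefSeq, GRCm38.p6. Of the lists, Ddit3 stands under more than 1 gene ID and was taken at its lowest. The lists for MCL1 turnover and for inhibitors of apoptosis each name 1 gene by an old and a newer symbol (March5 and Marchf5, Sept4 and Septin4), and the old one is in the table.

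The members and lists were chosen with earlier results of these data known. All 10 members were named, with up to 3 genes of highest TPM per list and every family gene with 0 reads. Bmf, Apaf1, Casp9, Cflar, Gsk3b, Diablo, Dynll1, Usp9x, Trp53, Trp63, Trp73, Fas and the neighbours of Pmaip1 were added after their values were seen. The level of 1 listed gene is not reported here. Python 3.11.15, numpy 2.4.6, pandas 2.3.3, scipy 1.17.1 and matplotlib 3.10.9 were used.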

Additional observations from a re-analysis of the deposited data

Results flagged for a closer look

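Reads were found on 2 genes that lie inside Bid but share no exon base with it. Each had more than the limit of 3 reads set for a count of 0. Neither is annotated as protein-coding, so both lie outside the protein-coding genes compared above. Gm44260, on the same strand as Bid, had 41 reads. Gm17812, a processed pseudogene on the opposite strand, had 8 reads. The source of these reads was not tested.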

How the results depend on the processing

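No paired analysis was possible because the knockout library had no partner or replicate, and no replicate could be left out. The comparison of knockout with wild type, with its alternative scaling, was not run because no column could be assigned to the wild type. The count of 9 detected members was the same at thresholds of 1 and 100 reads. Without length correction the ratio was 2.87 for Mcl1 to Bcl2l1, 4.14 for Mcl1 to Bcl2 and 1.45 for Bcl2l1 to Bcl2, and the order reversed for Bax to Bak1 (0.825), Bak1 to Bcl2l1 (0.608), Bbc3 to Bcl2 (0.322), Bcl2l2 to Bcl2 (0.555) and Bak1 to Bok (1.09). With the length of 1 transcript per gene those first 3 ratios were 2.15, 8.71 and 4.05, Bax to Bak1 was 2.27, Bak1 to Bcl2l1 reversed to 0.654, and the prosurvival sum was 279 TPM. These shifts follow from the lengths used. Over all family genes of the lists the sums were 370.1 TPM for prosurvival, 266 for effector and 175 for BH3-only genes, and without the highest gene of each class 89.2, 76.8 and 115. The ratio of summed levels, prosurvival to BH3-only, was 1.96 in reads, 1.66 with 1 transcript per gene and, reversed, 0.779 without the highest genes. Prosurvival to effector was 4.11 in reads, 1.59 with 1 transcript per gene, 1.39 over all family genes and 1.16 without the highest genes. Effector to BH3-only was 0.476 in reads, 1.51 over all family genes and 0.67 without the highest genes. Without length correction the 3 classes held 57% (prosurvival), 13.9% (effector) and 29.1% (BH3-only) of their reads, in place of 50.5%, 25.4% and 24.1% of their TPM. Other library totals left the CPM of 9 of the 10 members within its counting interval, the exception being Mcl1 at 304.98 with protein-coding reads as the total. Ranking among genes with at least 1 or at least 100 reads moved Bcl2 from percentile 47.9 to 56.6 and 38.3, and ranking by CPM moved it to 69.5. By CPM Bax moved from percentile 87.7 to 59.1, Bad from 60.1 to 35 and Bbc3 from 58.9 to 35.5, whereas Bcl2l11 rose from 72.5 to 86. On that scale Bcl2 thus lay above the median of detected genes, and Bad and Bbc3 below it.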
